A study of Mus musculus with 12 samples.

Results

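Interleukins are secreted proteins through which cells signal to each other, and their genes and those of their receptors were described across 12 RNA-seq libraries of mesenchymal stem cells, the stromal precursors of fat, bone and cartilage, grown from mouse bone marrow. The genes were taken by symbol, as all rows of the count table whose name begins with Il and a digit, which gave 83 of 23955 symbols. Of these, 38 encode ligands, 41 receptor chains, 2 inhibitors of a ligand (Il1rn and Il18bp), 1 an amino acid oxidase (Il4i1) and 1 an antisense RNA (Il1bos). Of the 83, 55 had at least 10 counts summed over the 12 libraries, and 24 of 12323 genes tested in all passed the filter on low counts. These 24 were 3 ligands, 18 receptor chains, both inhibitors and Il4i1.

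The groups were 4 libraries of cells given 50 nM tributyltin (TBT), 4 of cells given 500 nM rosiglitazone (ROSI) and 4 of cells given the vehicle, 0.1% DMSO. Tributyltin, an organotin biocide, is a ligand of both PPARγ and the retinoid X receptors (RXR), and rosiglitazone is a PPARγ ligand and antidiabetic drug; by its title the series is about activation of RXR in adipogenesis. All groups, DMSO included, received the same adipogenic cocktail for 14 days, made of dexamethasone at 1 uM, insulin at 5 ug/mL and isobutylmethylxanthine at 0.5 mM, so every value here is from cells under a glucocorticoid and an inducer of cyclic AMP. The cells were a commercial stock from female C57BL/6 mice at passages 9 to 10, and nothing in the labels ties the 4 libraries of a treatment to different dishes or mice, so p-values measure only library-to-library spread, which may be technical. The summed level of 9 adipocyte markers, mostly Lpl and Fabp4, was 2234 to 3357 CPM in TBT, 4389 to 5814 CPM in ROSI and 1057 to 2030 CPM in DMSO. By their means 6 of the 9 were highest in ROSI and lowest in DMSO; Adipoq was lowest in TBT (2.30 CPM, with 13.3 CPM in ROSI and 10.7 CPM in DMSO), Cebpa was alike in TBT (21.7 CPM) and DMSO (22.1 CPM), and Cfd was highest in DMSO (12.6 CPM, with 3.35 CPM in TBT and 7.08 CPM in ROSI). The summed level of 10 stromal markers was 2608 to 3477 CPM in TBT, 1500 to 1735 CPM in ROSI and 3291 to 4362 CPM in DMSO; CPM is a count over the scaled library size, in the usual unit of edgeR. Of the stromal markers Eng, the gene of endoglin, was nearly absent, with 21 counts in all libraries.

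Library totals lay between 4027152 and 7474654 counts, of which the interleukin and receptor genes held 3969 to 12409. TBT replicate 4 stood apart from the other TBT libraries. Rn45s, the ribosomal RNA precursor, took 6.85% of its counts, against 0.399% to 0.670% in TBT replicates 1 to 3, 1.36% to 9.27% in ROSI and 2.64% to 6.18% in DMSO. Also, the log2 difference between the GC-richest and the GC-poorest quintile of genes was 0.12 there, against -0.57, -0.45 and -0.27 in TBT replicates 1, 2 and 3. Reads on 1498 sensory receptor genes, which these cells are not known to use, summed to 149 ± 40.0 CPM in TBT, 69.1 ± 5.38 CPM in ROSI and 516 ± 216 CPM in DMSO (SD, n = 4 libraries in each group, as in all values below); the source of these reads is not known, and they were highest in DMSO.

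An interleukin signal begins when a ligand joins a receptor made of 2 or more chains. The IL-1 family (IL-1, IL-18 and IL-33) uses receptors with an intracellular Toll/IL-1 receptor domain that signal through MyD88 and IRAK kinases to NF-κB. IL-6 and IL-11 bind a private chain, IL6RA or IL11RA1, and share the signalling chain gp130, the product of Il6st, while IL-4, IL-13 and IL-15 use other shared chains; these receptors signal through JAK kinases and STAT factors. IL1RN and IL18BP hold the IL-1 family back: the first occupies the IL-1 receptor without signalling and the second captures IL-18. Marrow stromal cells are known for IL-6 and IL-7 among the factors that they give to blood cells, and IL-1 and IL-11 are known to restrain the formation of fat cells in culture.

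Upstream sequences are shown for the receptor gene with the smallest adjusted p, the nearby Il18rap, the most abundant inhibitor and the most abundant ligand. Each is the 250 bases before a transcription start, 5′ to 3′ on the strand of the gene, from RefSeq on build GRCm38.p6. Capitals mark matches to the NF-κB motif, GGGA and CC parted by any 4 bases. Il1rl1 has a distal start at chr1:40429320-40429569 (plus strand) and a proximal one at chr1:40439379-40439628 (plus strand). The windows of Il18rap (chr1:40515112-40515361, plus strand), the first start of Il1rn (chr2:24336610-24336859, plus strand) and the third start of Il16 (chr7:83655496-83655745, minus strand) follow.
Il1rl1 distal: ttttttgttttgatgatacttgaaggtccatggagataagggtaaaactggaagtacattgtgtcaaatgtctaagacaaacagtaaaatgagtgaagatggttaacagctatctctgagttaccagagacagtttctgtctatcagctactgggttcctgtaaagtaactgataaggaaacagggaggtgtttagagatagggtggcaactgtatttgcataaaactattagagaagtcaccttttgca
Il1rl1 proximal: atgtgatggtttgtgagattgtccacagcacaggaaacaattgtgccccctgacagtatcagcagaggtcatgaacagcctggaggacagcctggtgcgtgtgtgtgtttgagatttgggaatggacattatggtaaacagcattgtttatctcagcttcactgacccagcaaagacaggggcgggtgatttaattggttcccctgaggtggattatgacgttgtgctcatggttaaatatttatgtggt
Il18rap: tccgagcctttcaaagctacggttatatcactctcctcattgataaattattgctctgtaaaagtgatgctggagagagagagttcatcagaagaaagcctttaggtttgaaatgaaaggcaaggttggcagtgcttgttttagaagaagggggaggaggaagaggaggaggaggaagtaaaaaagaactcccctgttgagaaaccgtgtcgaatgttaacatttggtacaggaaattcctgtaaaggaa
Il1rn: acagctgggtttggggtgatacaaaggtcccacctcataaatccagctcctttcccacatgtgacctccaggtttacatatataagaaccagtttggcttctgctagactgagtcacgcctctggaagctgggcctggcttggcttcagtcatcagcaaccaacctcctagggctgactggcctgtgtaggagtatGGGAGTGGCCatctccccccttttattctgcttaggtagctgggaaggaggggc
Il16: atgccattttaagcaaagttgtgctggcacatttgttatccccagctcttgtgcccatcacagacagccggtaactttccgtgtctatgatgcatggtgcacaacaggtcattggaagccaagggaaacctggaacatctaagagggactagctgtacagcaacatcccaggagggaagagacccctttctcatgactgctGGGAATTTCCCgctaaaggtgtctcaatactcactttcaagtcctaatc

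The Il1rn window held 1 match and the Il16 window matches on both strands that overlap in the same run, while neither Il1rl1 window nor the Il18rap window held one. Il1rn and Il16 have 3 starts each in the table, and the start with a match was shown; the other two of each gene held 0 matches. Across all interleukin and receptor genes, 66 of 83 had 1 or more of the 81 promoters in the RefSeq table, each 300 bases long. The NF-κB motif was in 19 of the 81 (23.5%) and in 20.7% of all 32851 promoters, counting both strands. The STAT motif TTCNNNGAA was in 11 (13.6%), against 8.30% of all promoters. The interferon-stimulated response element, 2 copies of GAAA with any 2 bases between them, was in 3 (3.70%), against 3.44%. The strict DR1 motif of PPARγ with RXR, 2 copies of AGGTCA with any 1 base between them, was in 0, against 0.0396%. A match is a description of letters only, and several promoters belong to the same gene.

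Set against DMSO, more interleukin and receptor genes were lower than higher with either compound. In ROSI against DMSO 10 of the 24 tested genes passed an adjusted p of 0.05 (edgeR's quasi-likelihood test), 1 higher and 9 lower, where 22.6% of all tested genes passed, 10.0% higher and 12.6% lower. Both inhibitors fell, as did 2 of 3 ligands (Il16 and Il33) and 5 of 18 receptor chains (Il1rl1, Il18rap, Il1r1, Il6ra and Il6st), and 1 receptor chain rose (Il15ra). In TBT against DMSO 9 of 24 passed, 1 higher and 8 lower, where 15.2% of all tested genes passed, 8.22% higher and 7.03% lower. With upper-quartile in place of TMM factors the share of higher genes among all those passing in that comparison was 39.6% in place of 53.9%. Those that fell were the same ligands and inhibitors and 4 receptor chains (Il1rl1, Il18rap, Il4ra and Il1rap), and Il11ra2 rose. The median log2 fold change over the 24 was -0.51 in ROSI against DMSO and -0.43 in TBT against DMSO, beside 0.01 and -0.01 over all tested genes. Both comparisons use the same 4 DMSO libraries. The 24 passed a filter on low counts in the groups where they were higher, so the counts and medians describe these genes and are no measure of the 83.

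**Figure D1:**
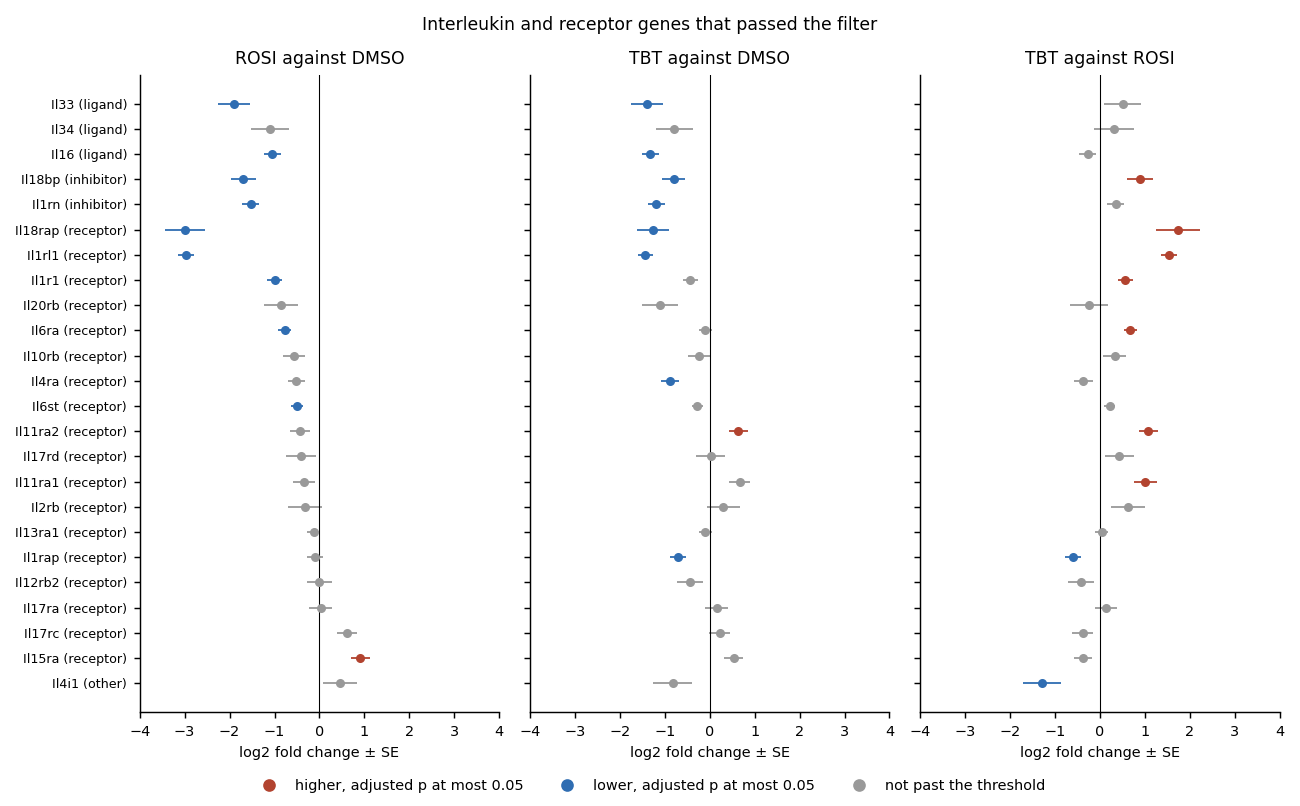
Log2 fold change ± SE of the 24 tested genes in each comparison, with ligands at the top, then inhibitors, receptor chains and Il4i1; red points are higher and blue points lower at an adjusted p of at most 0.05, and grey points did not pass. Against DMSO the blue points outnumber the red ones in both treatments, with 8 lower and 1 higher in TBT and 9 lower and 1 higher in ROSI, and in TBT against ROSI 7 points are red and 2 blue.

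In TBT against ROSI 9 of 24 passed, 7 higher and 2 lower, where 23.9% of all tested genes passed, 12.8% higher and 11.1% lower. Higher in TBT were 6 receptor chains (Il1rl1, Il18rap, Il1r1, Il6ra, Il11ra1 and Il11ra2) and the inhibitor Il18bp, and lower were the receptor chain Il1rap and the enzyme Il4i1. None of the 3 ligands passed, 0 had an unadjusted p under 0.05, and DESeq2 called 0 as well. The median log2 fold change was 0.32, beside 0.02 over all tested genes. All 10, 9 and 9 calls of the 3 comparisons were also made without TBT replicate 4. Over all genes, leaving that library out gave 4124 calls in TBT against DMSO, in place of 1879. In TBT against ROSI it gave 4826, in place of 2940. The shares of all tested genes set beside the TBT counts thus depend on that library and were larger without it.

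Among the ligands, Il16 was the most abundant of the 3 tested; it encodes pro-interleukin-16, whose C-terminal part is a chemoattractant for CD4+ cells. Il16 had 28.4, 22.2, 27.6 and 23.5 CPM in the TBT libraries, 32.1, 41.7, 22.6 and 26.9 CPM in the ROSI libraries and 69.6, 46.8, 62.7 and 75.1 CPM in the DMSO libraries. All treated libraries lay below all DMSO libraries. Because the RNA is from whole cultures, fewer cells that express a gene and less RNA per cell cannot be told apart here or in any later result. This gave a log2 fold change of -1.32 ± 0.19 in TBT against DMSO (adjusted p = 0.00035) and -1.05 ± 0.19 in ROSI against DMSO (adjusted p = 0.00049). TBT against ROSI did not pass (log2 fold change -0.28 ± 0.19, adjusted p = 0.31, 95% interval -0.68 to 0.13). The reads carry no strand, and 22.5% of the Il16 exon bases overlap the opposite-strand gene Stard5 in GENCODE M21, so the Il16 values are uncertain. The part of the Il16 counts that comes from Stard5 was not tested and may be larger than that share of bases. Stard5 averaged 70.6 CPM in TBT, 138 CPM in ROSI and 111 CPM in DMSO, with log2 fold changes of -0.65 in TBT against DMSO (adjusted p = 0.019) and 0.32 in ROSI against DMSO (adjusted p = 0.20).

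Il33 encodes the nuclear alarmin interleukin-33, the ligand of the receptor encoded by Il1rl1. It was scarce, at 2.68, 1.16, 1.50 and 1.96 CPM in the TBT libraries, 1.00, 2.05, 1.29 and 0.602 CPM in the ROSI libraries and 3.33, 5.62, 4.83 and 5.53 CPM in the DMSO libraries, or 15, 6, 7 and 9 counts in TBT, 4, 13, 10 and 3 in ROSI and 14, 24, 35 and 35 in DMSO. The lowest DMSO library stood above the highest treated one. The fitted log2 fold change was -1.39 ± 0.35 in TBT against DMSO (adjusted p = 0.015) and -1.90 ± 0.36 in ROSI against DMSO (adjusted p = 0.00096). The TBT call ended without TBT replicate 2 (adjusted p = 0.052).

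Il34, whose product is a second ligand of the macrophage receptor CSF1R, passed in neither comparison with DMSO. Levels were 1.43, 0.772, 1.28 and 3.70 CPM in the TBT libraries, 2.26, 1.42, 1.03 and 1.20 CPM in the ROSI libraries and 3.09, 3.74, 2.90 and 2.69 CPM in the DMSO libraries. ROSI libraries all lay below DMSO, while TBT replicate 4 reached the DMSO range. In log2 terms the change was -0.79 ± 0.41 in TBT against DMSO (adjusted p = 0.19) and -1.10 ± 0.42 in ROSI against DMSO (adjusted p = 0.067). Without TBT replicate 4 both comparisons passed, with adjusted p-values of 0.015 in TBT against DMSO and 0.025 in ROSI against DMSO.

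Of the inhibitors, Il1rn, the gene of the IL-1 receptor antagonist, was the second most counted of all 83 genes after Il6st. It had 185, 147, 202 and 109.6 CPM in the TBT libraries, 125, 89.3, 150.2 and 144 CPM in the ROSI libraries and 343, 337, 326 and 460.4 CPM in the DMSO libraries. Even the highest treated library was well under the lowest DMSO library. The fall was 2.27-fold in TBT (log2 fold change -1.19 ± 0.19, adjusted p = 0.00098) and 2.89-fold in ROSI (log2 fold change -1.53 ± 0.20, adjusted p = 2.2e-05). TBT exceeded ROSI by 0.34 ± 0.19 (log2), which did not pass (adjusted p = 0.20). Without TBT replicate 4, the lowest TBT library, that difference was 0.50 and passed (adjusted p = 0.026).

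Il18bp encodes the soluble IL-18 binding protein. Levels were 15.9, 7.53, 19.7 and 11.5 CPM in the TBT libraries, 8.52, 5.06, 7.63 and 8.43 CPM in the ROSI libraries and 33.3, 22.5, 16.9 and 23.5 CPM in the DMSO libraries. ROSI libraries were all below the DMSO libraries, while TBT replicate 3 lay inside the DMSO range. Its log2 fold change was -1.70 ± 0.28 in ROSI against DMSO (adjusted p = 0.00023), -0.80 ± 0.26 in TBT against DMSO (adjusted p = 0.048) and 0.89 ± 0.29 in TBT against ROSI (adjusted p = 0.032). Numa1 overlaps 2.64% of its exon bases on the opposite strand. Both calls that involve TBT depended on single libraries. TBT against DMSO ended without DMSO replicate 1 (adjusted p = 0.159), 2 (0.084) or 4 (0.077), without TBT replicate 1 (0.070) or 2 (0.137), and without ROSI replicate 1 (0.056), 3 (0.058) or 4 (0.054). TBT against ROSI ended without ROSI replicate 2 (0.104) or 3 (0.064) and without TBT replicate 1 (0.094) or 3 (0.139).

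**Figure D2:**
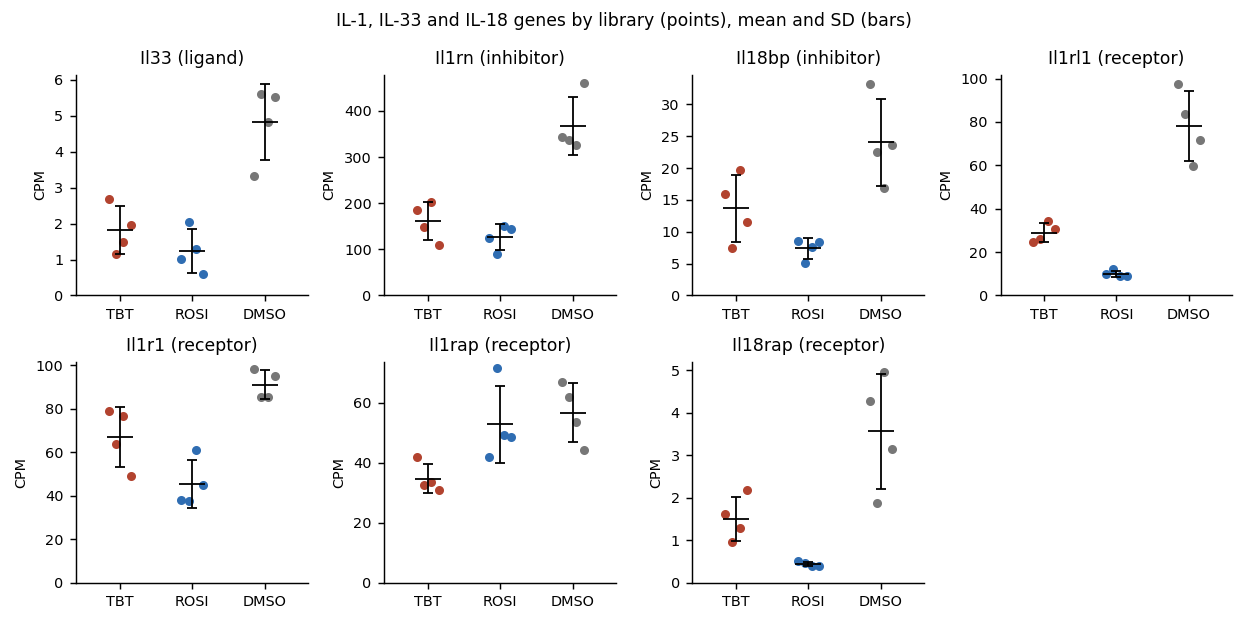
CPM of 7 genes of the IL-1 family in each library, with a point per library and black bars for the mean and SD of the 4 libraries of TBT, ROSI and DMSO; each y axis starts at 0. Il1rl1 shows 3 separate levels, with TBT between ROSI and DMSO, and Il1rn shows both treatments below DMSO.

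Of the receptor chains of the IL-1 family, Il1rl1 encodes ST2, the receptor chain of IL-33. It had 24.5, 26.1, 34.2 and 30.7 CPM in the TBT libraries, 9.78, 12.0, 8.93 and 8.83 CPM in the ROSI libraries and 97.4, 83.5, 59.5 and 71.6 CPM in the DMSO libraries. The 3 groups did not overlap: every ROSI library was below every TBT library, and every TBT library below every DMSO library. Il1rl1 was 7.84-fold lower in ROSI than in DMSO (log2 fold change -2.97 ± 0.18, adjusted p = 3.2e-08) and 2.70-fold lower in TBT than in DMSO (log2 fold change -1.43 ± 0.17, adjusted p = 5.8e-05). It was also 2.91-fold higher in TBT than in ROSI (log2 fold change 1.54 ± 0.18, adjusted p = 2.0e-05). Ligand and receptor chain were thus both lower in each treatment than in DMSO, while between the treatments the receptor chain differed and the ligand did not pass (Il33, log2 fold change 0.51 ± 0.41, 95% interval -0.36 to 1.38).

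Il1rl1 is also known from mast cells and other immune cells. Of 5 mast cell markers 0 passed the filter and 1, Tpsb2, had no count; their summed level was 0 to 0.217 CPM in TBT, 0 to 0.259 CPM in ROSI and 0.632 to 4.51 CPM in DMSO. Most of the DMSO level was Ms4a2, at a mean of 1.45 CPM, against a mean of 78.0 CPM for Il1rl1 in the same libraries. Of the 10 stromal markers 5, Pdgfra, Pdgfrb, Ly6a, Col1a1 and Cxcl12, had their means in the order of Il1rl1, lowest in ROSI and highest in DMSO, and carried the sum; Thy1, Cd44 and Eng were lowest in TBT, and Nt5e and Vcam1 lowest in DMSO. The part of either cell type in the result was not tested.

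Il18rap, the accessory chain of the IL-18 receptor, had 9, 5, 6 and 10 counts in the TBT libraries, 2, 3, 3 and 2 counts in the ROSI libraries and 18, 8, 36 and 20 counts in the DMSO libraries. That is 1.51 ± 0.516 CPM in TBT, 0.441 ± 0.0552 CPM in ROSI and 3.57 ± 1.36 CPM in DMSO. ROSI libraries lay below all others, while TBT replicate 4 lay above the lowest DMSO library. The test gave a log2 fold change of -2.99 ± 0.44 in ROSI against DMSO (adjusted p = 8.2e-05), -1.26 ± 0.36 in TBT against DMSO (adjusted p = 0.028) and 1.73 ± 0.50 in TBT against ROSI (adjusted p = 0.019). The TBT call against DMSO ended without DMSO replicate 1 (adjusted p = 0.076) or 3 (0.092) and without TBT replicate 1 (0.064), 2 (0.089) or 3 (0.073). Against ROSI it did not pass with ROSI replicate 3 (0.056) or TBT replicate 1 (0.051) left out. The partner chain Il18r1 was below the filter, with 1, 0, 3 and 0 counts in TBT, 1, 2, 1 and 1 in ROSI and 4, 0, 5 and 2 in DMSO. The sensory receptor genes had the group order of Il18rap, at 69.1 CPM in ROSI, 149 CPM in TBT and 516 CPM in DMSO. The part of that background in Il18rap was not tested.

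Il1r1 encodes the signalling receptor of IL-1. Levels were 79.2, 63.9, 76.6 and 49.1 CPM in the TBT libraries, 37.9, 37.4, 60.9 and 45.1 CPM in the ROSI libraries and 98.4, 85.4, 85.4 and 95.0 CPM in the DMSO libraries. All ROSI libraries were below all DMSO libraries, and all TBT libraries were as well. On the log2 scale the fold change was -0.998 ± 0.17 in ROSI against DMSO (adjusted p = 0.00038) and -0.44 ± 0.17 in TBT against DMSO, which did not pass (adjusted p = 0.088). TBT was higher than ROSI by 0.56 ± 0.17 on the log2 scale (adjusted p = 0.026), although ROSI replicate 3 exceeded TBT replicate 4. It was lost with any of ROSI replicates 1 (adjusted p = 0.082), 2 (0.089) and 4 (0.057) or TBT replicates 1 (0.095) and 3 (0.098) left out.

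Il1rap encodes the accessory chain that IL-1R1 and ST2 share. It had 41.8, 32.6, 33.6 and 30.9 CPM in the TBT libraries, 41.9, 71.6, 49.3 and 48.5 CPM in the ROSI libraries and 67.0, 62.0, 53.7 and 44.3 CPM in the DMSO libraries. TBT libraries lay below all libraries of ROSI and DMSO, which overlapped each other. The log2 fold change was -0.70 ± 0.18 in TBT against DMSO (adjusted p = 0.015), -0.61 ± 0.18 in TBT against ROSI (adjusted p = 0.021) and -0.09 ± 0.17 in ROSI against DMSO (95% interval -0.46 to 0.27). The call against DMSO ended without DMSO replicate 1 (adjusted p = 0.056), and the one against ROSI did not hold with ROSI replicate 2 (0.091) left out or TBT replicate 2 (0.051). The opposite-strand gene Gm20319 overlaps 4.10% of its exon bases and averaged 1.59 CPM in TBT, 6.10 CPM in ROSI and 4.33 CPM in DMSO.

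Il1r1, Il1rl1 and Il18rap lie near each other. On mouse chromosome 1 the RefSeq order of protein-coding genes is Il1r2, Il1r1, Il1rl2, Il1rl1, Il18r1 and Il18rap, 6 receptor genes with no other protein-coding gene between them. The 3 of them that passed the filter were all lower in ROSI than in DMSO, with log2 fold changes of -0.998, -2.97 and -2.99. Of all tested genes 12.6% were called lower in that comparison. In TBT against DMSO Il1rl1 and Il18rap were called lower, where 7.03% of all tested genes were, and Il1r1 did not pass (adjusted p = 0.088). The other 3 were under the filter: Il1r2 had 4 counts in all libraries, Il1rl2 had 13 and Il18r1 had 20. Il1rap, which lies elsewhere, did not pass in ROSI. Neighbouring genes are no replicates of each other.

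The gp130 receptors came next. Il6st, the gene of gp130, was the most counted of all 83, with 579, 574, 635 and 631 CPM in the TBT libraries, 508, 598, 473 and 502 CPM in the ROSI libraries and 672, 741, 679 and 849 CPM in the DMSO libraries. Treated libraries were all below the DMSO libraries, and TBT and ROSI overlapped. The log2 fold change was small, -0.50 ± 0.12 in ROSI against DMSO (adjusted p = 0.0067) and -0.28 ± 0.12 in TBT against DMSO, which did not pass (adjusted p = 0.12).

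Il6ra, the private chain of the IL-6 receptor, had 56.3, 50.0, 68.2 and 54.6 CPM in the TBT libraries, 38.6, 28.8, 41.4 and 35.1 CPM in the ROSI libraries and 67.0, 54.5, 56.2 and 68.0 CPM in the DMSO libraries. ROSI libraries stood below all others, and TBT and DMSO overlapped. The fitted log2 fold change was -0.77 ± 0.15 in ROSI against DMSO (adjusted p = 0.00087) and 0.67 ± 0.15 in TBT against ROSI (adjusted p = 0.0036). In TBT against DMSO it was -0.10 ± 0.14 (95% interval -0.40 to 0.20). Il6 itself was scarce, at 2, 6, 2 and 1 counts in TBT, 5, 10, 7 and 6 in ROSI and 5, 7, 17 and 13 in DMSO, and under the filter.

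Il11ra1 encodes the private chain of the IL-11 receptor, and Il11ra2 is its close copy in the mouse. Il11ra1 had 19.3, 25.1, 27.8 and 16.3 CPM in the TBT libraries, 10.0, 7.43, 12.5 and 13.8 CPM in the ROSI libraries and 8.32, 13.6, 14.6 and 18.6 CPM in the DMSO libraries. Il11ra2 had 11.6, 12.7, 13.3 and 10.0 CPM in the TBT libraries, 5.27, 4.11, 6.73 and 6.42 CPM in the ROSI libraries and 5.94, 7.25, 7.74 and 9.32 CPM in the DMSO libraries. For both genes every TBT library was above every ROSI library, while TBT replicate 4 of Il11ra1 lay inside the DMSO range. In TBT against ROSI the log2 fold change was 1.01 ± 0.25 for Il11ra1 (adjusted p = 0.0076) and 1.07 ± 0.21 for Il11ra2 (adjusted p = 0.0019). In TBT against DMSO it was 0.66 ± 0.24 for Il11ra1 (adjusted p = 0.071) and 0.64 ± 0.21 for Il11ra2 (adjusted p = 0.047).

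The pair cannot be counted apart with certainty. In the GENCODE M21 transcripts 59.3% of the 50-base words of Il11ra2 and 15.8% of those of Il11ra1 are in both genes, and the rule by which such reads were assigned is not given in the sources used here. Summed over the pair, the level was 34.0 ± 6.66 CPM in TBT, 16.6 ± 4.00 CPM in ROSI and 21.4 ± 5.64 CPM in DMSO. Leaving out TBT replicate 4 (adjusted p = 0.015) or DMSO replicate 4 (0.044) brought Il11ra1 past the threshold against DMSO. The Il11ra2 call against DMSO was among the least stable. It ended without any single one of DMSO replicates 1 (0.124), 2 (0.101) and 3 (0.087), ROSI replicates 1 (0.054), 3 (0.057) and 4 (0.057) and TBT replicates 1 (0.087), 2 (0.106) and 3 (0.120). Both calls of TBT against ROSI held with every library left out.

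Among the receptors of IL-4, IL-13 and IL-15, Il15ra was the only tested gene of the 24 that rose in ROSI against DMSO. Its product presents IL-15 to neighbouring cells. It had 13.0, 19.1, 10.7 and 15.7 CPM in the TBT libraries, 17.0, 17.1, 20.8 and 21.1 CPM in the ROSI libraries and 12.4, 8.19, 12.0 and 7.90 CPM in the DMSO libraries. ROSI libraries were all above the DMSO libraries, and TBT overlapped both. In log2 terms the change was 0.91 ± 0.21 in ROSI against DMSO (adjusted p = 0.0038) and 0.53 ± 0.21 in TBT against DMSO, which did not pass (adjusted p = 0.095). The ligand Il15, under the filter, had 11, 6, 9 and 8 counts in TBT, 1, 2, 4 and 2 in ROSI and 9, 6, 5 and 7 in DMSO. In a fit without the filter Il15 was higher in TBT than in ROSI (adjusted p = 0.016).

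Il4ra encodes the chain shared by the receptors of IL-4 and IL-13. Levels were 9.11, 7.53, 9.63 and 11.5 CPM in the TBT libraries, 15.3, 11.5, 12.2 and 10.0 CPM in the ROSI libraries and 14.7, 22.9, 15.2 and 17.1 CPM in the DMSO libraries. TBT libraries were all below the DMSO libraries, while ROSI replicate 1 reached the DMSO range. Its log2 fold change was -0.88 ± 0.20 in TBT against DMSO (adjusted p = 0.0089) and -0.51 ± 0.19 in ROSI against DMSO, which did not pass (adjusted p = 0.068). Without ROSI replicate 1 or TBT replicate 4 the ROSI difference passed (adjusted p = 0.046 and 0.044).

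Il13ra1, the other chain of that receptor, had 86.3, 70.6, 78.1 and 76.8 CPM in the TBT libraries, 57.9, 100.0, 64.8 and 81.5 CPM in the ROSI libraries and 77.9, 87.0, 84.5 and 83.8 CPM in the DMSO libraries. The groups overlapped, and the 95% interval of the log2 fold change was -0.41 to 0.22 in TBT against DMSO and -0.44 to 0.19 in ROSI against DMSO. Il2rb, the beta chain of the IL-2 and IL-15 receptors, had 4.29, 4.82, 5.78 and 10.7 CPM in the TBT libraries, 5.77, 1.74, 6.08 and 2.81 CPM in the ROSI libraries and 5.23, 4.91, 6.77 and 3.48 CPM in the DMSO libraries. Its groups overlapped and it passed in no comparison. Il2rg, the common gamma chain that an IL-2 or IL-15 signal needs, had 9 counts in all 12 libraries, and Il2ra had 24.

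**Figure D3:**
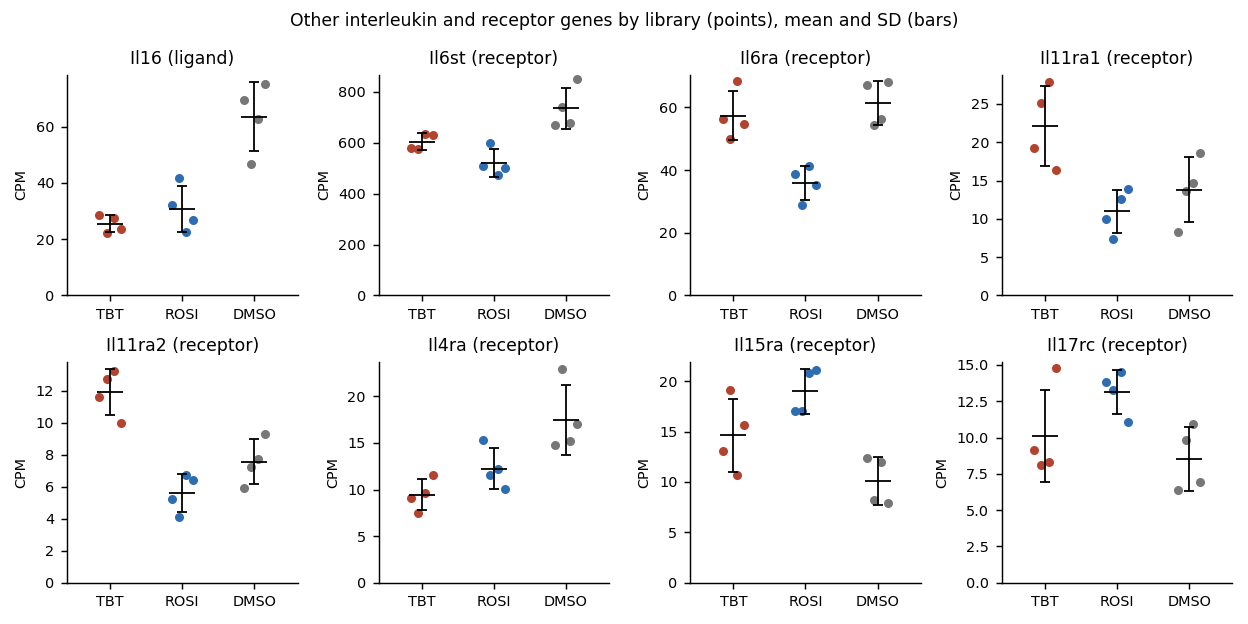
CPM in each library of Il16 and of 7 receptor chains outside the IL-1 family, with a point per library and black bars for the mean and SD of the 4 libraries of TBT, ROSI and DMSO; each y axis starts at 0. Il6ra is low in ROSI and overlaps between TBT and DMSO, the pair Il11ra1 and Il11ra2 is higher in TBT than in ROSI, and Il15ra is higher in ROSI than in DMSO.

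Of the IL-17 receptors, Il17ra, the chain common to the family, had 47.2, 60.2, 49.0 and 27.4 CPM in the TBT libraries, 37.4, 42.5, 45.0 and 43.3 CPM in the ROSI libraries and 25.7, 29.7, 43.8 and 64.6 CPM in the DMSO libraries. The groups overlapped, and DMSO itself spanned the whole range of the ROSI libraries. The 95% interval of its log2 fold change was -0.37 to 0.68 in TBT against DMSO and -0.50 to 0.55 in ROSI against DMSO. Il17rc, its partner for IL-17A and IL-17F, had 9.11, 8.11, 8.34 and 14.8 CPM in the TBT libraries, 13.8, 13.3, 14.5 and 11.0 CPM in the ROSI libraries and 6.42, 9.83, 10.9 and 6.95 CPM in the DMSO libraries. ROSI libraries all stood just above the DMSO libraries, and TBT replicate 4 lay above the other TBT libraries.

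The log2 fold change of Il17rc was 0.62 ± 0.23 in ROSI against DMSO and did not pass (adjusted p = 0.062); it passed without DMSO replicate 3 (0.034) or TBT replicate 4 (0.021), and with DESeq2 (0.043) and limma (0.042). Without TBT replicate 4 it was also lower in TBT than in ROSI (log2 fold change -0.62, adjusted p = 0.028). Il17rd, a member of the family known to act on FGF signalling, had 5.72, 10.8, 3.21 and 4.35 CPM in the TBT libraries, 4.26, 3.32, 5.30 and 5.02 CPM in the ROSI libraries and 5.23, 4.45, 6.08 and 7.74 CPM in the DMSO libraries. Its groups overlapped and it passed in no comparison.

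Of the IL-10 and IL-12 receptor families, 3 chains were tested and none passed. Il10rb, which IL-10, IL-22 and the lambda interferons share, had 5.72, 7.53, 4.92 and 3.70 CPM in the TBT libraries, 4.01, 3.95, 5.04 and 4.41 CPM in the ROSI libraries and 5.94, 6.32, 5.53 and 8.22 CPM in the DMSO libraries. ROSI libraries lay just below the DMSO libraries, with a log2 fold change in ROSI against DMSO of -0.57 ± 0.25 (adjusted p = 0.12). In GENCODE M21, 30.8% of its exon bases also belong to the gene model Gm21970. Il20rb averaged 1.82 ± 0.493 CPM in TBT, 2.16 ± 1.32 CPM in ROSI and 3.95 ± 1.22 CPM in DMSO. Its log2 fold change was -1.10 ± 0.40 in TBT against DMSO (adjusted p = 0.071) and -0.86 ± 0.39 in ROSI against DMSO (adjusted p = 0.13), and the ROSI difference passed without ROSI replicate 4 (0.046). Il12rb2, a chain of the IL-12 receptor, had 7.86, 3.28, 3.85 and 6.31 CPM in the TBT libraries, 4.51, 7.90, 9.05 and 6.82 CPM in the ROSI libraries and 7.13, 5.62, 8.01 and 7.90 CPM in the DMSO libraries. The groups overlapped. Its values are uncertain, since 40.0% of its exon bases overlap Serbp1 on the opposite strand, which averaged 625 to 1034 CPM.

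Il4i1, which encodes a secreted oxidase of aromatic amino acids and is no interleukin, had 0.715, 1.35, 0.856 and 1.52 CPM in the TBT libraries, 3.76, 2.84, 2.46 and 2.01 CPM in the ROSI libraries and 1.66, 1.17, 3.32 and 1.42 CPM in the DMSO libraries. TBT libraries were all below the ROSI libraries, and DMSO overlapped both. The log2 fold change in TBT against ROSI was -1.29 ± 0.42 (adjusted p = 0.033). Without ROSI replicate 1 (adjusted p = 0.096) or 2 (0.074) and without TBT replicate 1 (0.109), 2 (0.050, just above the threshold) or 3 (0.084) it did not pass. In GENCODE M21, 87.4% of its exon bases overlap Tbc1d17, so its reads cannot be told from those of that gene over this stretch. Tbc1d17 averaged 5.99 CPM in TBT and 9.39 CPM in ROSI (log2 fold change -0.67, adjusted p = 0.084), and Atf5, which overlaps 3.50%, averaged 72.8 CPM in TBT and 171 CPM in ROSI (log2 fold change -1.23, adjusted p = 4.9e-05).

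Per length of exon, Il1rn stood first in DMSO. It reached 59.6 ± 15.3 CPM per kb in TBT, 46.9 ± 10.1 CPM per kb in ROSI and 135 ± 23.2 CPM per kb in DMSO, beside 55.1 ± 2.99, 47.4 ± 4.96 and 67.0 ± 7.49 CPM per kb for Il6st in the same groups. In TBT and in ROSI the levels of the 2 genes did not differ beyond their spread, while in DMSO Il1rn was higher. Il13ra1 came next in DMSO, at 22.4 ± 1.04 CPM per kb, and Il1r1, Il16 and Il1rl1 followed at 14.9 ± 1.09, 11.9 ± 2.30 and 11.4 ± 2.37 CPM per kb. From Il1r1 down through Il18bp (7.94 ± 2.25) to Il15ra (4.42 ± 1.05) the DMSO levels of neighbouring genes in that order overlapped within their SD. In ROSI Il1rl1 stood at 1.45 ± 0.216 CPM per kb, under Il1r1 (7.41 ± 1.79) and Il1rap (6.14 ± 1.50). The lengths are unions of exons in GENCODE M21, which may differ from the gene models that were counted.

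**Figure D4:**
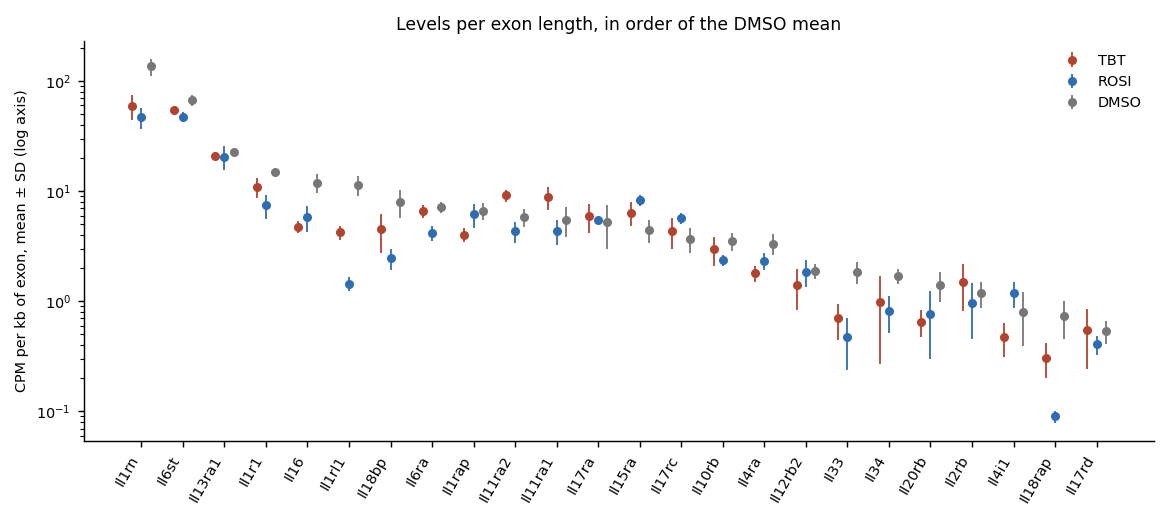
CPM per kb of exon (log axis) of the 24 tested genes, ordered by their DMSO mean, with the mean ± SD of the 4 libraries of TBT, ROSI and DMSO side by side. Il1rn and Il6st stand highest, and Il1rl1, Il18rap, Il33 and Il18bp show wide gaps between ROSI and DMSO.

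Summed by role, the receptor chains gave 1017 ± 37.4 CPM in TBT, 873 ± 67.5 CPM in ROSI and 1249 ± 93.2 CPM in DMSO, of which Il6st was the main part. The inhibitors gave 175 ± 45.5 CPM in TBT, 134 ± 28.7 CPM in ROSI and 391 ± 63.7 CPM in DMSO. Ligands gave 37.3 ± 6.28 CPM in TBT, 38.8 ± 8.83 CPM in ROSI and 83.5 ± 11.6 CPM in DMSO, of which Il16 was the main part. In all 3 groups the summed ligands were thus the smallest of these roles, on a scale that does not correct for length.

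The other 31 genes with at least 10 counts were under the filter. They were 15 ligands (Il1a, Il1f8, Il4, Il5, Il6, Il7, Il10, Il11, Il15, Il17f, Il18, Il19, Il23a, Il27 and Il31) and 16 receptor chains (Il1rapl2, Il1rl2, Il2ra, Il3ra, Il5ra, Il7r, Il12rb1, Il13ra2, Il17rb, Il17re, Il18r1, Il20ra, Il22ra2, Il23r, Il27ra and Il31ra). A further 28 had fewer than 10 counts in all, among them Il1b with 8, Il2rg with 9, Il10ra with 3 and Il2 with 1, and Il17b, Il21r, Il25 and Il9 had none, which allows up to 3 counts a library, or 0.388 to 0.752 CPM. Of the cytokines that marrow stroma is known for, Il7 had 1, 0, 7 and 0 counts in TBT, 0, 1, 1 and 3 in ROSI and 2, 5, 6 and 2 in DMSO. At such counts these genes stayed outside the main test.

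Several of the scarce receptor genes, picked after their values were seen, had most of their counts in DMSO. The summed sensory receptor genes were also highest there, at 516 ± 216 CPM, against 149 ± 40.0 CPM in TBT and 69.1 ± 5.38 CPM in ROSI. Il5ra had 2, 0, 0 and 1 counts in TBT, 0, 0, 0 and 0 in ROSI and 7, 7, 3 and 2 in DMSO. Il7r had 1, 0, 2 and 0 counts in TBT, 0, 0, 0 and 0 in ROSI and 3, 3, 4 and 2 in DMSO. Il23r had 2, 1, 0 and 0 counts in TBT, 0, 2, 0 and 0 in ROSI and 5, 3, 5 and 7 in DMSO. These encode chains of the receptors of IL-5, IL-7 and IL-23, which are known from white blood cells.

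In a fit without the filter 55 of the scarce genes were tested. It called 5 lower in ROSI than in DMSO, where 10.5% of all genes in that fit were called lower: Il5ra (adjusted p = 0.0027), Il7r (0.017), Il1rapl2 (0.019), Il23r (0.029) and Il22ra1 (0.044). Il22ra1, named after its values were seen, had 5, 1, 0 and 3 counts in DMSO and none elsewhere. Il6 alone was called in TBT against DMSO, lower (0.041), where 5.73% of all genes were. In TBT against ROSI Il15 (0.016) and Il11 (0.033) were called higher, where 6.84% of all genes were; Il11 had 10, 2, 15 and 1 counts in TBT, 1, 2, 3 and 0 in ROSI and 4, 1, 9 and 2 in DMSO. Il3 had 5 counts, all of them in TBT replicate 1.

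The mean sums over the scarce genes were also highest in DMSO. Over the 23 receptor chains under the filter the summed level was 5.52 ± 1.48 CPM in TBT, 6.64 ± 0.886 CPM in ROSI and 13.1 ± 2.37 CPM in DMSO. Over the 35 ligands under the filter it was 8.28 ± 3.60 CPM in TBT, 5.23 ± 0.678 CPM in ROSI and 12.0 ± 1.40 CPM in DMSO. For these ligands TBT overlapped DMSO: TBT replicates 1 (10.9 CPM) and 3 (11.6 CPM) lay inside the DMSO range of 10.7 to 14.0 CPM. TBT replicate 4 was the lowest of the TBT libraries, at 3.91 CPM. The sensory receptor genes were highest in DMSO too, at 149 ± 40.0 CPM in TBT, 69.1 ± 5.38 CPM in ROSI and 516 ± 216 CPM in DMSO. The part of that background in the scarce genes was not tested. Of 8 T and NK cell markers 0 passed the filter and Nkg7 had no count, and their sum was 1.09 to 2.12 CPM in TBT, 0.790 to 2.61 CPM in ROSI and 1.90 to 4.43 CPM in DMSO. Of 4 B cell markers 0 passed, with Cd79b at no count, and their sum was 0 to 0.214 CPM in TBT, 0.251 to 1.00 CPM in ROSI and 0.138 to 0.950 CPM in DMSO.

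**Figure D5:**
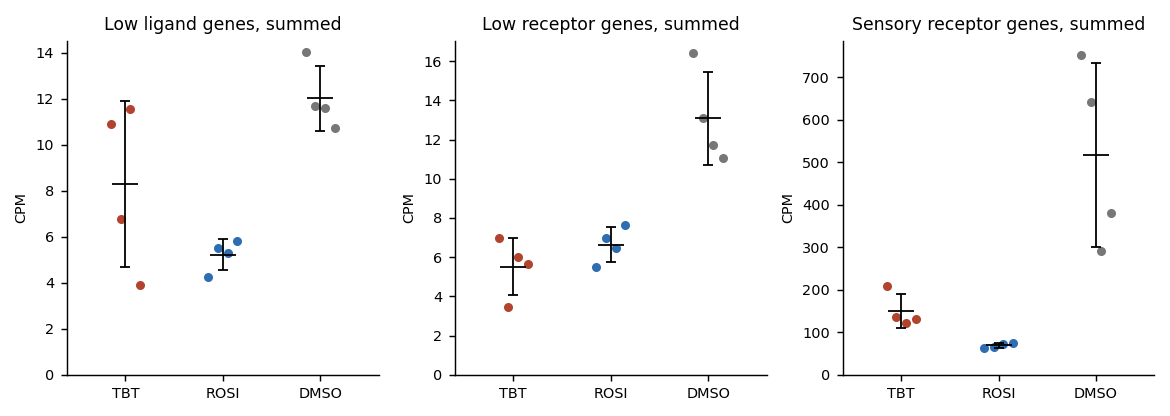
Summed CPM in each library of the 35 ligand genes under the filter, the 23 receptor genes under the filter and the 1498 sensory receptor genes, with a point per library and black bars for the mean and SD of TBT, ROSI and DMSO. In all 3 panels the DMSO mean is the highest.

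Macrophages, a usual source of IL-1β, left few reads. Of 9 macrophage markers 3 passed the filter, and the sum of the 9 was 19.7 to 35.7 CPM in TBT, 19.7 to 30.8 CPM in ROSI and 25.6 to 30.2 CPM in DMSO, which overlapped. Cd68, with its highest mean in ROSI, and Cd14, with its highest mean in DMSO, made up most of that sum. On few counts, Emr1, Csf1r, Itgam, Mrc1 and Ptprc had their highest means in DMSO, and Lyz2 and Fcgr1 in ROSI. The 5 neutrophil markers gave 0.193 to 1.43 CPM in TBT, 0 to 0.647 CPM in ROSI and 0.475 to 1.66 CPM in DMSO. The endothelial markers, 2 of 5 tested, gave 5.02 to 7.49 CPM in TBT, 2.26 to 4.42 CPM in ROSI and 7.13 to 9.36 CPM in DMSO.

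Downstream of the receptors, 19 of 23 genes of the JAK, STAT and SOCS list were tested. In ROSI against DMSO 2 rose and 4 fell, in TBT against DMSO 4 rose and 3 fell, and in TBT against ROSI 2 were higher and 2 lower, beside the 22.6%, 15.2% and 23.9% of all tested genes called in these comparisons. Socs3, the feedback inhibitor of gp130, was lower in both treatments, with a log2 fold change of -0.96 ± 0.16 in TBT (adjusted p = 0.00098) and -0.79 ± 0.15 in ROSI (adjusted p = 0.0012). Stat3, the main factor below gp130, was lower in TBT than in DMSO (log2 fold change -0.64 ± 0.15, adjusted p = 0.011). It was also lower in TBT than in ROSI (log2 fold change -0.59 ± 0.15, adjusted p = 0.010). In ROSI against DMSO Stat3 did not pass (log2 fold change -0.05 ± 0.15, adjusted p = 0.87). Stat2, an interferon factor, averaged 167 ± 41.0 CPM in TBT, 52.2 ± 1.66 CPM in ROSI and 207 ± 58.7 CPM in DMSO. Its log2 fold change was -1.98 ± 0.20 in ROSI against DMSO (adjusted p = 2.2e-06). In TBT against DMSO Stat2 did not pass (log2 fold change -0.30 ± 0.19, adjusted p = 0.28). It was higher in TBT than in ROSI (log2 fold change 1.68 ± 0.20, adjusted p = 1.7e-05). Against DMSO, Socs3 thus fell in both treatments, Stat3 in TBT only and Stat2 in ROSI only. The genes that rose against DMSO, 2 in ROSI and 4 in TBT, are only counted above. Of 14 partners of the gp130 and common chains 7 were tested, with 2 lower in ROSI against DMSO, 1 lower in TBT against DMSO (Clcf1) and 1 lower in TBT against ROSI (Clcf1).

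Of 21 genes of IL-1, IL-18 and IL-17 signalling 18 were tested. In ROSI against DMSO 0 rose and 2 fell (Irak3 and Traf3ip2), a smaller share than the 22.6% of all tested genes. Against DMSO, 4 rose in TBT (Irak1, Irak2, Traf6 and Nfkbia) and 4 fell (Traf3ip2, Nfkb1, Nfkb2 and Relb), where 15.2% of all tested genes were called, and in TBT against ROSI 3 were higher and 2 lower, where 23.9% were. Nfkbia, the inhibitor of NF-κB and also its target, averaged 38.7 ± 13.3 CPM in TBT and 19.3 ± 4.53 CPM in DMSO (log2 fold change 1.02 ± 0.23, adjusted p = 0.0081). Relb, a subunit of the non-canonical arm, averaged 0.756 ± 0.337 CPM in TBT and 3.32 ± 1.62 CPM in DMSO (log2 fold change -2.07 ± 0.46, adjusted p = 0.0082). Its TBT level is near that of 3 counts, 0.536 to 0.652 CPM in these libraries, so the fold rests on few counts. The calls of single genes in these signalling lists were not run under the alternatives.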

How the data were processed

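Libraries were depleted of ribosomal RNA and read as 50 nt single ends without strand on a SOLiD 5500XL, per the labels' protocols. The authors deposited raw read counts per gene symbol, and also log2 values made by a regularized-log transform. The submitters' processing notes name build mm9 and the tools FastQC, SAMtools and DESeq2; which aligner, counting rule and gene models were used is not given in the sources used here. Columns were mapped to libraries by title. Counts were tested in R 4.3.3 with edgeR 4.0.16: filterByExpr by group, TMM factors, 1 quasi-likelihood model over all 12 libraries without covariates, and Benjamini-Hochberg adjustment over 12323 genes with a threshold of 0.05. CPM was taken from edgeR's cpm with TMM factors, SE is the log2 fold change over the root of F, 95% intervals come from the same fit, and the limit of 3 counts for a gene at 0 covers counting error only. The procedure was also run on simulated counts. These held no outlying library, GC shift or group difference in background reads, so that run cannot speak to such features. The genes and lists were chosen with earlier results of these data known. Every gene with at least 10 counts is named; per-library values are given for genes past the threshold or at a mean of at least 5 CPM, and beyond that rule for Il34 and the scarce genes with counts shown, which were chosen after their values were seen. Alternatives were DESeq2 size factors and upper-quartile factors in edgeR, DESeq2 1.42.0, a replicate block, only the 2 groups compared, a floor of 5 CPM on the mean, an unfiltered fit, limma 3.58.1 on the deposited log2 values, each library left out and, chosen after seeing the data, GC-corrected offsets. A gene of these lists is counted but not reported here by name. Exon lengths, overlaps and shared words are from GENCODE M21 on GRCm38, and no coordinates were carried between builds.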

Additional observations from a re-analysis of the deposited data

Results flagged for a closer look

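Of 72 groups of 4 libraries checked among the tested interleukin and receptor genes, 2 held a library set apart from the other 3, where chance sets apart about 1 in 20 groups. Il1rn in DMSO replicate 4 stood at 460 CPM, above the next library at 343 CPM and the lowest at 326 CPM, a gap of 0.874 of the range. Il17rc in TBT replicate 4 stood at 14.8 CPM, above the next library at 9.11 CPM and the lowest at 8.11 CPM, a gap of 0.849 of the range.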

How the results depend on the processing

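In ROSI against DMSO all 10 calls kept their direction and passed under every alternative that tested them. In TBT against DMSO and in TBT against ROSI 4 of 9 calls each did so, namely Il16, Il1rl1, Il1rn and Il4ra against DMSO and Il6ra, Il11ra1, Il11ra2 and Il1rl1 against ROSI. No value past the threshold changed sign, while 32 that passed in neither fit did; 1412 gene values kept their side of the threshold, 57 lost it and 24 gained it. Over the libraries left out in turn, ligand calls were 2 to 4 in ROSI against DMSO, 1 to 3 in TBT against DMSO and 0 to 1 in TBT against ROSI, and receptor calls were 6 to 8, 2 to 6 and 5 to 8. At a mean of at least 5 CPM the ligand calls against DMSO were 1 for ROSI and 1 for TBT, and the TBT receptor calls were 3. Without the filter 12 receptor chains passed in ROSI against DMSO and 2 ligands in TBT against ROSI; more genes were tested there. In TBT against DMSO 3 receptor chains passed with only the 2 groups compared. With a replicate block 3 receptor chains passed in TBT against DMSO, and 1160 genes in place of 1879; same-numbered libraries correlated at -0.43 to 0.14 in their deviations, 1 of 12 matched its own number best, and the numbers were not read as pairs. All-gene calls were 1019 to 4124 in TBT against DMSO with a library left out (4124 without TBT replicate 4) and 1732 to 4826 in TBT against ROSI, in place of 2940, and 1199 against DMSO with only the 2 groups compared. Upper-quartile factors moved the share of higher calls among all genes to 39.6% in TBT against DMSO, from 53.9%, and shifted the median by -0.07. The cause of these changes was not tested. Under the block, Il18rap (adjusted p = 0.053) and Il11ra2 (0.074) against DMSO and Il4i1 (0.068) against ROSI did not pass, and with GC-corrected offsets Il18bp against DMSO (0.055) and Il1r1 (0.056) and Il4i1 (0.079) against ROSI did not. With only the 2 groups compared, Il18rap (0.056), Il18bp (0.071) and Il11ra2 (0.070) against DMSO and Il1r1 (0.063) and Il18bp (0.052) against ROSI did not pass. Il11ra2 against DMSO also failed with upper-quartile factors (0.071), without the filter (0.069) and at a mean of at least 5 CPM (0.051), and Il18rap against ROSI failed in limma on the deposited values (0.087). Calls were also gained. In ROSI against DMSO Il17rc passed in DESeq2 (0.043), without the filter (0.047), in the 2 groups alone (0.031), in limma (0.042) and with GC offsets (0.028), Il34 in the 2 groups alone (0.022) and with GC offsets (0.036), and Il4ra with GC offsets (0.025). Il11ra1 passed in TBT against DMSO in DESeq2 (0.049), without the filter (0.033) and with GC offsets (0.031), and Il1r1 with upper-quartile factors (0.047) and GC offsets (0.026). Genes under about 10 CPM rest on few counts, which limits the folds of Il33, Il18rap, Il34 and Relb.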
